A study of Mus musculus with 12 samples.

Results

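Glutathione S-transferases of the alpha, mu and pi classes were followed at the mRNA level in mouse liver. The group holds Gsta1, Gsta2, Gsta3, Gsta4, Gstm1, Gstm2, Gstm3, Gstm4, Gstm6 and Gstp1, which were taken by their symbols from the table of 24411 genes. All 10 were expressed above the filter on low counts and stood among the 13922 genes tested. The liver RNA came from 3 cont., 3 Atg7-KO and 3 Atg7-KO;p62T352A mice at 3 months of age, on a C57BL/6 background. Every mouse, the cont. mice included, carried Atg7flox/flox. Atg7-KO mice also carried Alb-Cre, which is driven by the albumin promoter and removes Atg7, a gene needed for autophagosome formation, in hepatocytes. The paper calls this knockout hepatocyte-specific, and counts from whole liver cannot show in which cells Atg7 was removed. Atg7-KO;p62T352A mice carried Alb-Cre and in addition p62T352A on both alleles of the endogenous p62 gene, Sqstm1, in all cells. The study used this exchange because the mutant p62 does not hold KEAP1 in p62 bodies, and the comparisons ask which mRNAs differ when autophagy is lost in hepatocytes with wild-type or with mutant p62.

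Cytosolic glutathione S-transferases join the tripeptide glutathione to reactive electrophiles, such as drug metabolites and products of lipid peroxidation, and so make them soluble and ready for export. They form dimers within a class, and the liver is among the tissues richest in them. Many members of the alpha and mu classes are textbook targets of NRF2, a transcription factor that KEAP1 marks for degradation and that binds antioxidant response elements in DNA.

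Several of these genes have copies that differ by few bases, which bears on every value below because the reads were short. The starts of the coding sequences are shown here for the copies that the results turn on, from GENCODE transcripts (vM21, GRCm38). Each line gives the first 75 coding bases, and capitals mark bases that differ from the first sequence of its set (Gsta1 for the alpha class and Gstp1 for the pi class).
Gsta1: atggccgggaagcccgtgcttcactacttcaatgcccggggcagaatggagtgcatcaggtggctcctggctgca
Gsta2: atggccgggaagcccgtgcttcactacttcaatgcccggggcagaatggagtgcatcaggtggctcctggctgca
Gm3776: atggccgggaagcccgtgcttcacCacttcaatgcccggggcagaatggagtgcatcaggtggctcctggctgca
Gstp1: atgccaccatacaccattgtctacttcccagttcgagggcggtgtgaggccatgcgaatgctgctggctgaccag
Gstp2: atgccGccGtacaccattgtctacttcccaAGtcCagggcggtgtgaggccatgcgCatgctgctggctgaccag

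In these stretches Gsta1 and Gsta2 had no mismatch, Gm3776 had 1 mismatch to Gsta1, and Gstp2 had 6 mismatches to Gstp1. Over the whole coding sequence, Gsta1 was 99.7% identical to Gm3776 and 97.6% identical to Gsta2, and Gstp1 was 98.1% identical to Gstp2. Of all stretches of 75 bases in the transcripts of a gene, 84.7% also occurred in another gene for Gsta1, 36.6% for Gsta2, 29.2% for Gstp1, 21.6% for Gstm3 and 11.7% for Gstm1. The share was 2.59% for Gstm6 and 1.85% for Gstm2, and no stretch was shared by Gsta3, Gsta4 or Gstm4. The counts were not whole numbers in 9 of 9 mice for Gsta1, Gsta2, Gstm1, Gstm3, Gstm6 and Gstp1 and in 5 of 9 mice for Gstm2, whereas those of Gsta3, Gsta4 and Gstm4 were whole in every mouse. The split of reads between such copies is therefore an estimate, and the values of Gsta1, Gsta2 and Gstp1 in particular are uncertain as those of single genes.

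Total counts were between 9671073 and 23285134 per cont. mouse, 16157275 and 18480541 per Atg7-KO mouse, and 16133626 and 17357183 per Atg7-KO;p62T352A mouse. Levels are given as normalized CPM, which are counts scaled to library size by the TMM method, and differences as log2 fold changes with their standard error. Atg7 mRNA was at 48.7 ± 5.94 CPM for cont., 10.6 ± 1.27 for Atg7-KO and 28.9 ± 1.28 for Atg7-KO;p62T352A mice (mean ± SD, n = 3 per genotype). It was thus below cont. in both groups with Alb-Cre, but the mice labelled Atg7-KO;p62T352A had 1.45 ± 0.17 more on the log2 scale than Atg7-KO mice (adjusted p = 1.64e-04, edgeR's quasi-likelihood test), and the part of this residual Atg7 mRNA in the results below was not tested. By immunoblot, the paper found almost no ATG7 protein and almost no LC3-II in livers of the Atg7-KO background, with wild-type or mutant p62. It uses the conversion of LC3-I to LC3-II as a sign of autophagy elsewhere, and reads the 2 losses as blocked autophagy. Gene-level counts cannot show whether a transcript lacks the floxed part, nor the p62T352A exchange itself. Sqstm1 was 387 ± 103, 914 ± 44.2 and 545 ± 71.1 CPM in the same order. In each genotype the mouse numbered 1 had at most 1.35 CPM of Xist, the transcript of the inactive X chromosome, and the mice numbered 2 and 3 had between 373 and 2015 CPM.

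With Atg7 deleted and p62 wild-type, the mRNAs of 7 of the 10 genes rose, and no fall among the other 3 passed the test. Gsta1, Gsta2, Gsta4, Gstm1, Gstm2, Gstm3 and Gstm4 were called higher in Atg7-KO relative to cont. livers, at a Benjamini-Hochberg FDR under 0.05 in edgeR's quasi-likelihood test and a fold change over 1.5. Of all genes tested, 21.6% were called higher and 22.1% lower in this comparison. The median log2 fold change was 2.14 over the 10 genes and -0.03 over all genes tested. Together the 10 genes held 0.558% to 0.767% of all counts in a cont. liver and 2.40% to 2.76% in an Atg7-KO liver. Gsta3, Gstm6 and Gstp1 were not called.

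**Figure D1:**
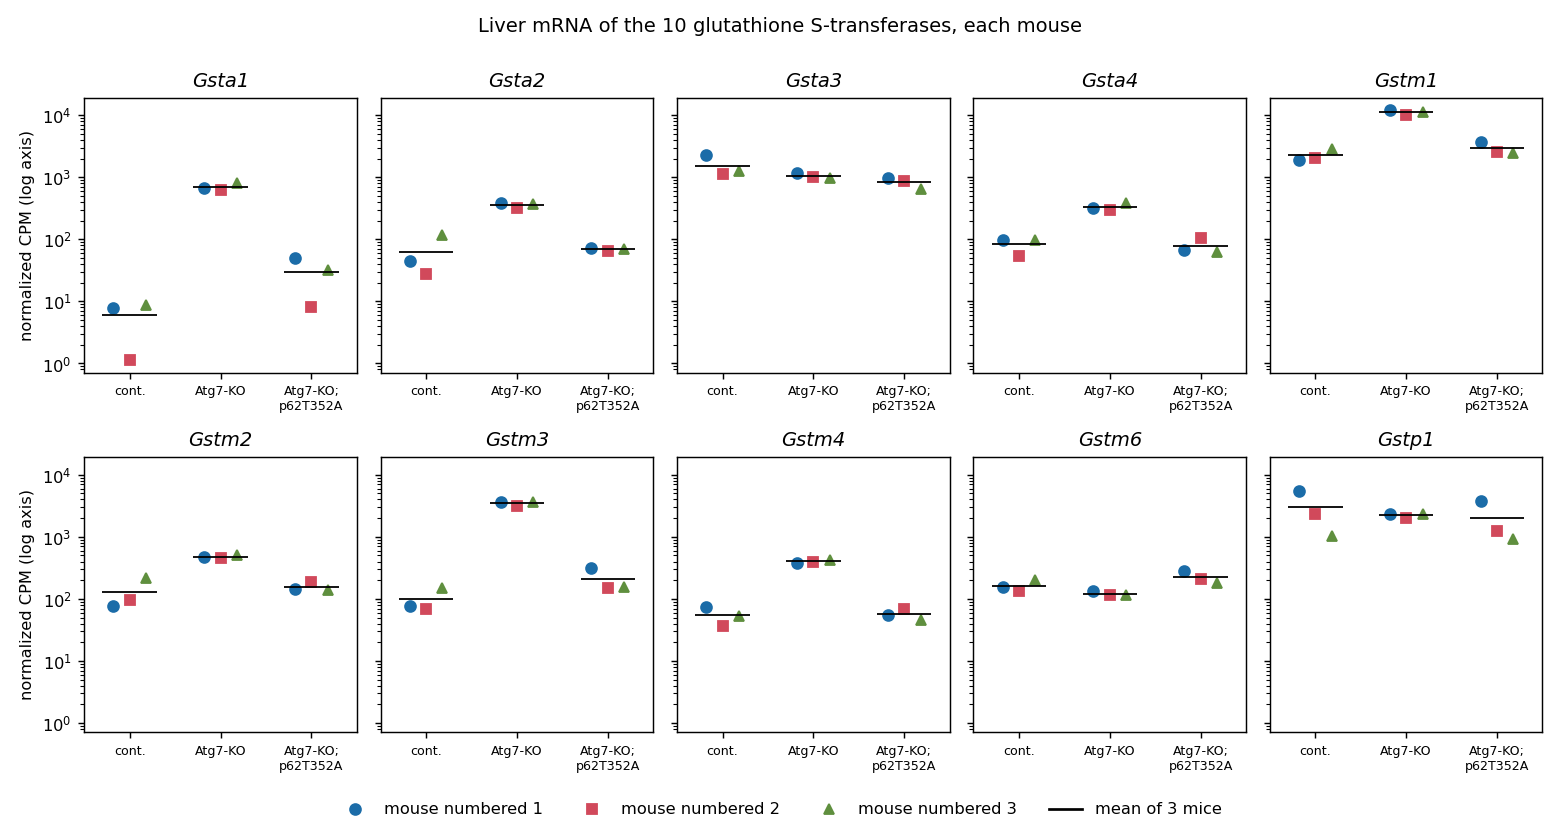
Normalized CPM (log axis) of the 10 genes in each of the 9 mice, by genotype, with the symbol giving the mouse number and the bar the mean of 3 mice. Gsta1, Gsta2, Gsta4, Gstm1, Gstm2, Gstm3 and Gstm4 lie higher in all 3 Atg7-KO mice than in any other mouse, whereas Gsta3 and Gstp1 overlap between cont. and Atg7-KO.

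Within the alpha class the genes differed widely, from a gene scarce in cont. livers that rose most to an abundant gene that was not called. Gsta1 (chr9:78230656-78242684, plus strand), which together with Gsta2 encodes the inducible alpha class subunits of mouse liver, had 7.91, 1.13 and 8.79 CPM in cont. mice 1, 2 and 3. In Atg7-KO mice it had 667, 615 and 821 CPM. Every Atg7-KO mouse was thus far above every cont. mouse, with a log2 fold change of 6.88 ± 0.86 (adjusted p = 2.78e-04). Gsta2 (chr9:78331018-78355788, minus strand) had 44.8, 27.8 and 116 CPM in cont. and 378, 319.9 and 366 CPM in Atg7-KO mice. Its rise was smaller than that of Gsta1, at 2.49 ± 0.44 (adjusted p = 0.00177), from a higher and more variable level in cont. mice. Gsta4 (chr9:78182774-78209349, plus strand), whose product prefers 4-hydroxynonenal, an aldehyde from lipid peroxidation, had 96.8, 54.6 and 98.3 CPM in cont. and 314, 292 and 386 CPM in Atg7-KO mice. The groups did not overlap, and the log2 fold change was 1.99 ± 0.29 (adjusted p = 6.42e-04). Gsta4 shares no 75-base stretch with another gene, so this rise does not rest on the split between copies.

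Gsta3 (chr1:21240589-21265661, plus strand), the constitutive alpha class enzyme of mouse liver known for conjugating the epoxide of aflatoxin B1, did not follow the other alpha genes. It had 2244, 1146 and 1241 CPM in cont. and 1159, 998 and 956 CPM in Atg7-KO mice. The cont. mouse numbered 1 was the highest, and the groups overlapped. The log2 fold change was -0.57 ± 0.29 (adjusted p = 0.130), so that neither a fall nor an unchanged level was shown. Gsta3 lies on another chromosome than the other alpha genes of this set and shares no 75-base stretch with another gene.

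In the mu class, 4 of the 5 genes rose in Atg7-KO livers. They lie in a row on the minus strand of chromosome 3, from Gstm6 (chr3:107938847-107943749) through Gstm3 (chr3:107963696-107969283), Gstm2 (chr3:107981702-107986453) and Gstm1 (chr3:108012255-108017973) to Gstm4 (chr3:108040408-108044894). Gstm1, the most abundant mu class mRNA of these livers, had 1877, 2078 and 2816 CPM in cont. and 12030.0, 9896 and 11315 CPM in Atg7-KO mice. Its log2 fold change was 2.30 ± 0.27 (adjusted p = 1.98e-04). Gstm3 had 77.1, 69.7 and 147 CPM in cont. and 3691, 3158 and 3585 CPM in Atg7-KO mice. All 3 Atg7-KO mice were over 20 times as high as any cont. mouse, with a log2 fold change of 5.15 ± 0.43 (adjusted p = 3.90e-05). Gstm4, which shares no 75-base stretch with another gene, had 74.1, 36.7 and 53.6 CPM in cont. and 382, 388 and 431 CPM in Atg7-KO mice. It rose by 2.87 ± 0.28 on the log2 scale (adjusted p = 7.36e-05).

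Gstm2 had 78.1, 96.4 and 219.6 CPM in cont. and 466, 454 and 508 CPM in Atg7-KO mice. The cont. mouse numbered 3 stood above its group, but below all Atg7-KO mice, and the log2 fold change was 1.86 ± 0.36 (adjusted p = 0.00270). Gstm6 had 158, 134 and 199 CPM in cont. and 132, 115 and 115 CPM in Atg7-KO mice. It was lower in every Atg7-KO mouse than in any cont. mouse, but the nearest mice, at 134 and 132 CPM, lay close together, and it was not called at -0.44 ± 0.22 (adjusted p = 0.129). The groups did not overlap for 8 of the 10 genes, the 7 that were called and Gstm6. Of all genes tested, 55.5% did not overlap between these groups.

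Gstp1 (chr19:4035407-4037985, minus strand), the pi class gene, differed more among mice of a genotype than between genotypes. It had 5571, 2368 and 1026 CPM in cont. and 2367, 2009 and 2369 CPM in Atg7-KO mice. The cont. values thus spread on both sides of the Atg7-KO values, which lay close together. The log2 fold change was -0.41 ± 0.62 (adjusted p = 0.612). In Atg7-KO;p62T352A mice Gstp1 again ranged widely, at 3759.5, 1256 and 936 CPM. The coefficient of variation was 78.1% for cont. mice, 9.21% for Atg7-KO mice and 77.9% for Atg7-KO;p62T352A mice.

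The wide spread of Gstp1 went along with the mouse number in cont. and in Atg7-KO;p62T352A mice. The mouse numbered 1 was the highest and the mouse numbered 3 the lowest in both groups. Ddx3y, a gene of the Y chromosome, had 68.2, 23.6 and 6.04 CPM in cont. mice 1, 2 and 3 and 70.5, 8.20 and 2.94 CPM in Atg7-KO;p62T352A mice. In Atg7-KO mice Ddx3y had 46.5, 2.34 and 0.384 CPM, while Gstp1 did not follow that order. The livers with the most Xist thus also held some Y-linked mRNA, and the part of this in the spread of Gstp1 was not tested. Without the mice numbered 1, Gstp1 was 0.37 higher on the log2 scale in Atg7-KO livers relative to cont., and stood at -1.00 when Atg7-KO;p62T352A was set against Atg7-KO, and neither was called.

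**Figure D2:**
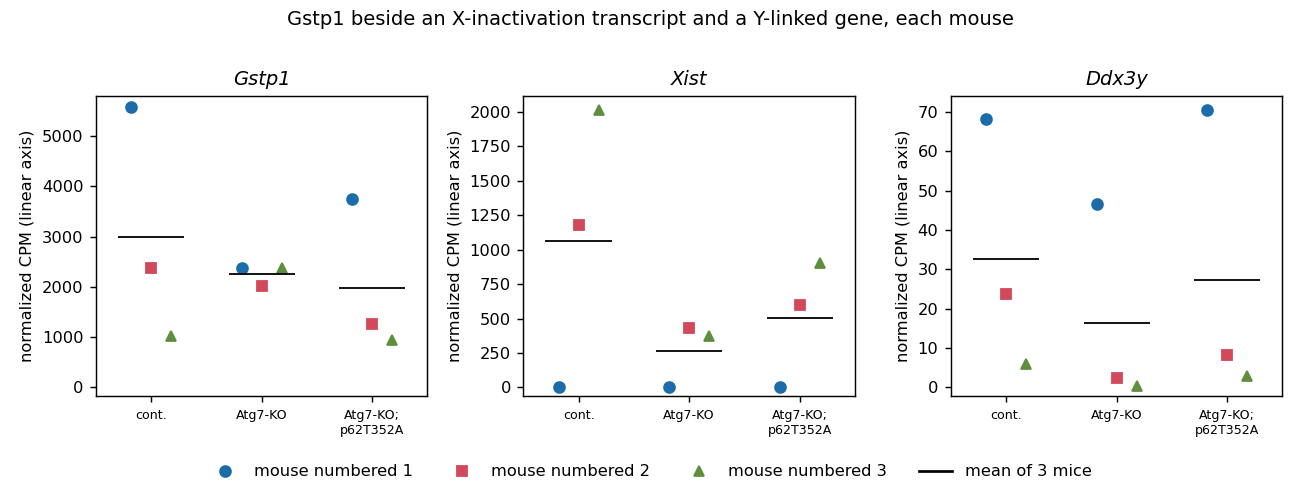
Normalized CPM (linear axis from 0) of Gstp1, Xist and Ddx3y in each of the 9 mice, with the bar at the mean of 3 mice. Gstp1 is highest in the mouse numbered 1 of the cont. and Atg7-KO;p62T352A groups, which have at most 1.35 CPM of Xist, but lies between 2009 and 2369 in all Atg7-KO mice.

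With mutant p62 in place of wild-type p62, the same 7 genes fell. Gsta1, Gsta2, Gsta4, Gstm1, Gstm2, Gstm3 and Gstm4 were called lower in Atg7-KO;p62T352A than in Atg7-KO mice, Gstm6 was called higher, and Gsta3 and Gstp1 were not called. Of all genes tested, 26.2% were called lower and 24.7% higher. The median log2 fold change was -2.00 over the 10 genes and 0.002 over all genes tested. Both comparisons use the same Atg7-KO mice, so the rise in the first and the fall in the other are not independent. For 8 of the 10 genes the mice of both groups did not overlap, against 73.2% of all genes tested.

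Gsta1 had 49.3, 8.20 and 32.6 CPM in Atg7-KO;p62T352A mice. All 3 values lay below every Atg7-KO value, and the log2 fold change to Atg7-KO was -4.54 ± 0.77 (adjusted p = 0.00109). Gstm3 had 319.9, 149.7 and 157 CPM, a log2 fold change of -4.06 ± 0.41 (adjusted p = 9.74e-05). Gstm4 had 55.8, 68.4 and 46.2 CPM and changed by -2.82 ± 0.28 (adjusted p = 8.42e-05). Gsta2 had 71.3, 64.9 and 71.1 CPM and changed by -2.36 ± 0.44 (adjusted p = 0.00185).

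Gsta4 had 66.1, 105 and 62.9 CPM in Atg7-KO;p62T352A mice, a log2 fold change of -2.08 ± 0.29 (adjusted p = 4.20e-04). Gstm1 had 3755, 2579 and 2461 CPM and changed by -1.92 ± 0.26 (adjusted p = 3.83e-04), and Gstm2 had 144, 189.6 and 139 CPM and changed by -1.59 ± 0.35 (adjusted p = 0.00450). Gstm6 moved the other way. It had 284, 209.9 and 177 CPM and was 0.90 ± 0.22 higher on the log2 scale than in Atg7-KO mice (adjusted p = 0.00818). A test against a fold change of 1.5 (glmTreat) did not call it (adjusted p = 0.0833, the highest over the alternative settings, the lowest being 8.33e-04). Gsta3 had 986, 874 and 645 CPM and changed by -0.31 ± 0.29 (adjusted p = 0.379), and Gstp1 changed by -0.18 ± 0.62 (adjusted p = 0.822).

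**Figure D3:**
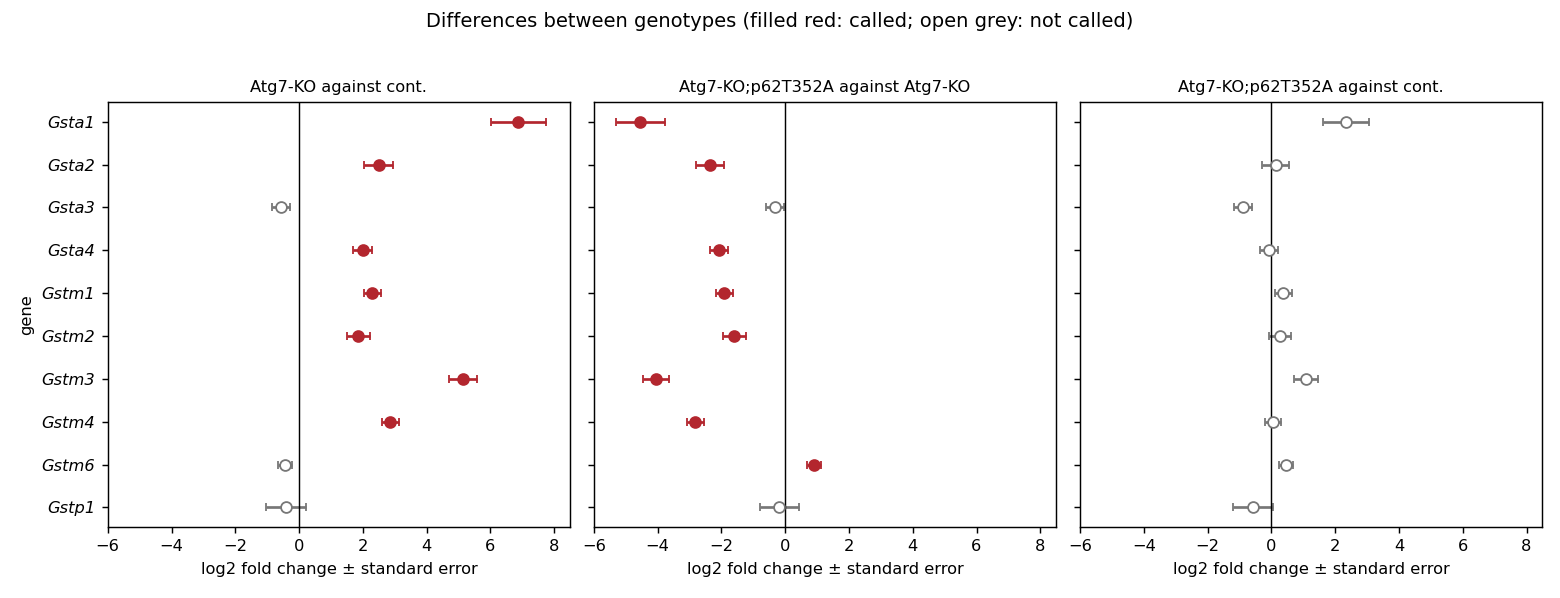
Log2 fold changes of the 10 genes in the 3 comparisons, with standard errors as bars; filled red points were called and open grey points were not. The 7 genes that rise in Atg7-KO against cont. lie on the negative side in Atg7-KO;p62T352A against Atg7-KO, Gstm6 lies at 0.90 there, and edgeR's quasi-likelihood test calls no gene in Atg7-KO;p62T352A against cont.

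Between Atg7-KO;p62T352A and cont. mice no member was called by edgeR's quasi-likelihood test in the fit on genotype alone. At an unadjusted p under 0.05 there were 3, against 28.2% of all genes tested, and DESeq2 called 3, with Gsta1 and Gstm3 higher and Gsta3 lower. Of all genes tested, edgeR called 11.6% in either direction, and DESeq2 called 15.5% of the genes to which it gave an adjusted p. The median log2 fold change was 0.20 over the 10 genes and 0.004 over all genes tested. A p that misses the threshold does not show equal levels, and the standard errors set what could be seen.

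The point estimates differed widely among the genes. Gsta1 was 2.33 ± 0.72 higher on the log2 scale than in cont. mice (adjusted p = 0.0645, and 0.00647 to 0.198 over the alternative settings). The mouse numbered 2 of Atg7-KO;p62T352A, at 8.20 CPM, lay within the cont. range of 1.13 to 8.79 CPM, and the other 2 mice lay above it. Gstm3 was 1.09 ± 0.37 higher (adjusted p = 0.0849, and 0.0289 to 0.368 over the alternative settings), with all 3 mice above the cont. mice. Gsta3 was at -0.89 ± 0.29 (adjusted p = 0.0771, and 0.0180 to 0.449 over the alternative settings), with all 3 mice below the cont. mice. Gstm3 and Gsta3 were the 2 members whose mice did not overlap, and 26.6% of all genes tested did not overlap here.

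For the other members the estimates lay nearer to 0. Gstm4 was at 0.05 ± 0.26, Gsta4 at -0.09 ± 0.28, Gsta2 at 0.14 ± 0.42 and Gstm2 at 0.26 ± 0.35. Gstm1 was at 0.38 ± 0.26, Gstm6 at 0.45 ± 0.22 and Gstp1 at -0.59 ± 0.62. Adjusted p lay between 0.219 and 0.924 for these 7 genes. Leaving out the cont. mouse numbered 3, which was high in Gsta2, Gstm2 and Gstm3, made these 3 genes called as higher, at 0.92, 0.85 and 1.51. Leaving out the cont. mouse numbered 1 or the Atg7-KO;p62T352A mouse numbered 2 made Gsta1 called, at 2.62 or 2.78. A fit with the mouse number as a block also called Gsta1, as given below. The shares of all genes called in these fits are not given here.

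Because reads can be divided wrongly between copies, the values were also read as sums. Gm3776 (chr9:78257129-78269166), the closest copy of Gsta1, had 5.21, 2.36 and 7.14 CPM for cont., 649, 628 and 749.6 CPM for Atg7-KO and 22.4, 6.02 and 11.6 CPM for Atg7-KO;p62T352A mice. It was called higher in Atg7-KO at 7.11 ± 0.59 (adjusted p = 3.72e-05) and lower in Atg7-KO;p62T352A against Atg7-KO at -5.66 ± 0.55 (adjusted p = 8.37e-05). Gm10639 (chr9:78289923-78305525), which shares stretches with Gsta2 and Gsta1, was listed at 0 in all cont. mice, at 7.64, 10.1 and 11.3 CPM in Atg7-KO mice and at no more than 0.131 CPM in Atg7-KO;p62T352A mice. The 4 copies Gsta1, Gsta2, Gm3776 and Gm10639 summed to 73.8 ± 52.3 CPM for cont., 1741 ± 191 CPM for Atg7-KO and 113 ± 32.0 CPM for Atg7-KO;p62T352A mice. The sum rose by 4.56 ± 0.52 in Atg7-KO (adjusted p = 1.68e-04), was at -3.95 ± 0.50 in Atg7-KO;p62T352A against Atg7-KO (adjusted p = 2.65e-04) and was at 0.61 ± 0.45 against cont. (adjusted p = 0.409).

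The sum of the mu genes that share stretches, Gstm1, Gstm3 and Gstm6, was 2518 ± 564, 14680.0 ± 1373 and 3365 ± 865 CPM in the 3 genotypes in the same order. It rose by 2.54 ± 0.28 (adjusted p = 1.40e-04) and then lay at -2.13 ± 0.27 (adjusted p = 2.80e-04). Gstm1 made up most of this sum, so it says nothing on Gstm6, whose own estimates had the opposite sign. Of the stretches of Gstm1 and Gstm3, 4.53% and 9.78% occur in another gene that has counts here. Both genes also share stretches with Gm8834 and Gstm2-ps1, which have no counts here, so the sum leaves out any reads that belong with these.

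The pi class pair split in the other way. Gstp2 (chr19:4040285-4046023) was rare, with 16.8, 7.38 and 7.58 CPM for cont., 169, 137 and 183 CPM for Atg7-KO and 59.0, 14.8 and 17.8 CPM for Atg7-KO;p62T352A mice. It was called higher in Atg7-KO, at 3.93 ± 0.57 (adjusted p = 6.07e-04), and lower in Atg7-KO;p62T352A against Atg7-KO, at -2.42 ± 0.53 (adjusted p = 0.00421). Gstp1 was not called in any of the 3 comparisons. The sum of both followed the abundant Gstp1, at 2999 ± 2341, 2412 ± 230 and 2014 ± 1571 CPM, with log2 fold changes of -0.31 ± 0.62 and -0.26 ± 0.62 in the first 2 comparisons. Of the stretches of Gstp2, 44.9% occur in Gstp1, whose reads outnumbered those of Gstp2 over 10-fold, and the part of read division in the rise of Gstp2 was not tested.

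**Figure D4:**
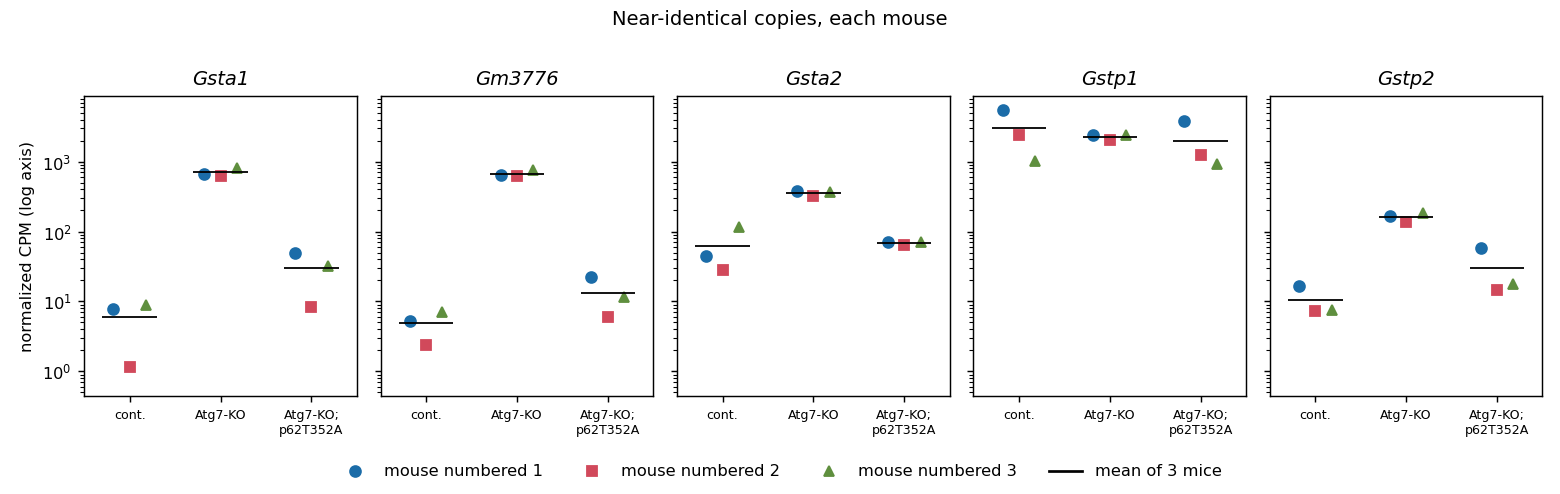
Normalized CPM (log axis) of Gsta1, its copies Gm3776 and Gsta2, and of Gstp1 and its copy Gstp2 in each mouse, with the bar at the mean of 3 mice. Gsta1, Gm3776 and Gsta2 are highest in the 3 Atg7-KO mice, whereas Gstp2 rises in all 3 Atg7-KO mice and Gstp1 does not.

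Levels can be set against each other only per transcript length, and CPM per kilobase of the longest annotated transcript was used for that. In cont. livers Gstp1 was the highest, with 3640 ± 2844 CPM per kilobase, and overlapped with Gstm1 at 1751 ± 384. Gsta3 followed at 553 ± 218 and lay apart from both its neighbours in the order. Gstm6 (139 ± 28.0), Gstm2, Gsta4, Gstm3, Gsta2 and Gstm4 (32.1 ± 11.0) came next, each overlapping with its neighbour. Gsta1 was the lowest at 6.79 ± 4.79 and lay apart. Of the 9 pairs of neighbours, 6 overlapped.

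In Atg7-KO livers the order was another. Gstm1 led with 8596 ± 843 CPM per kilobase and lay apart from Gstp1 at 2739 ± 252, which overlapped with Gstm3 at 2653 ± 215. Gsta1 came next at 801 ± 123, having been last in cont. livers. Gstm2, Gsta2, Gsta3 and Gsta4 followed within 447 ± 26.4 and 339 ± 50.6, each overlapping with its neighbour, then Gstm4 at 234 ± 15.5 and Gstm6 as the lowest at 102 ± 8.33. In Atg7-KO;p62T352A livers Gstp1 (2416 ± 1883) and Gstm1 (2274 ± 555) led again and overlapped, Gsta3 followed at 299 ± 62.3, and Gsta1 (34.3 ± 23.6) and Gstm4 (33.3 ± 6.51) were the last.

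As shares of the 10 genes per kilobase, Gstp1 held 71.3%, 54.7% and 26.9% in cont. mice 1, 2 and 3 and 16.3% to 16.7% in Atg7-KO mice. Gstm1 held 15.3% to 47.1% in cont. and 50.7% to 52.6% in Atg7-KO mice. Gstm3 went from at most 2.42% in cont. to at least 15.8% in Atg7-KO mice. With the mean transcript length in place of the longest, the first 4 places in cont. and in Atg7-KO livers were held by the same genes in the same order, and Gstm1 and Gstp1 exchanged places in Atg7-KO;p62T352A livers. Gsta3 depends most on this choice, since its longest transcript is much longer than its mean. With the mean length it was at 1049 ± 413 CPM per kilobase in cont. and 705 ± 72.9 in Atg7-KO livers, where it moved from place 7 to place 5, above Gstm2 and Gsta2.

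**Figure D5:**
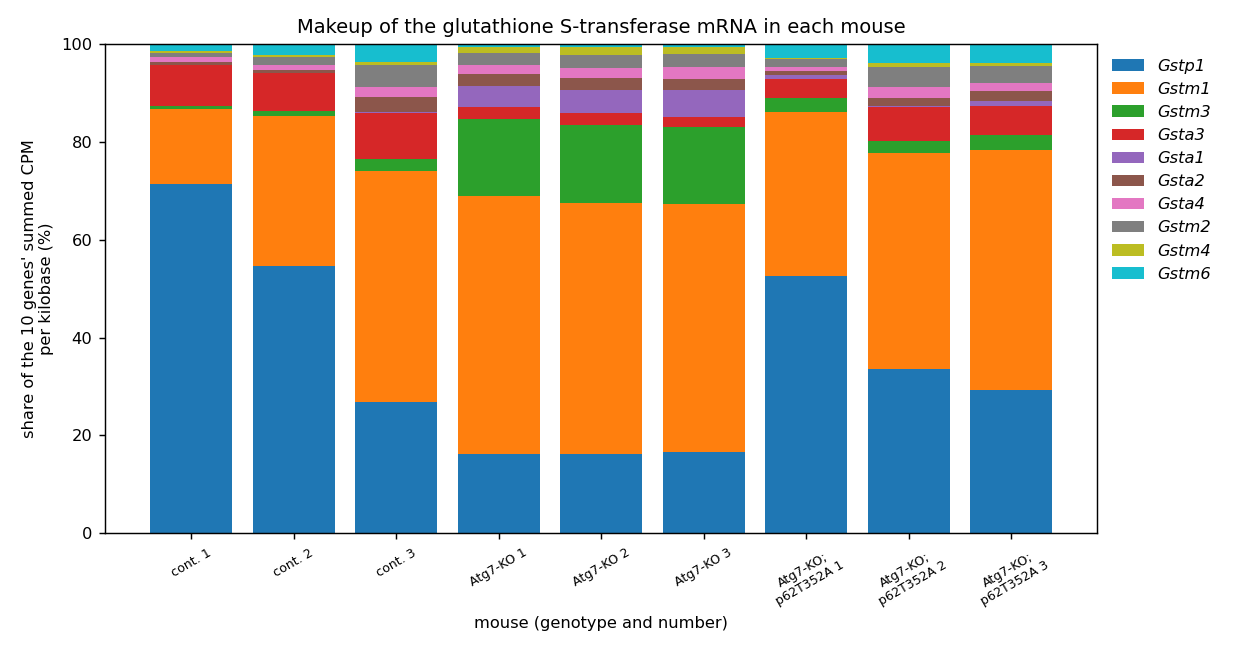
Share of each of the 10 genes in their summed CPM per kilobase of longest transcript (%), with a bar for each mouse. Gstp1 takes between 26.9% and 71.3% in cont. mice and between 16.3% and 16.7% in the 3 Atg7-KO mice, where Gstm1 and Gstm3 take most of the rest.

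Across the 9 mice the 7 genes that rose in Atg7-KO kept close company. Their 21 pairs had Pearson correlations of log2 CPM between 0.86 and 0.996, the highest for Gstm1 with Gstm3. Gstm6 was at -0.67 to -0.43 with the 7 genes, Gsta3 at -0.32 to 0.02 and Gstp1 at -0.23 to 0.17, while Gsta3 and Gstp1 were at 0.69 with each other. These values describe 9 mice in 3 genotypes, so most of each correlation is the difference between genotypes, and the copies share reads. The 7 genes were picked by their rise in these same mice, so high values among them follow in part from that choice. The genes outside the set most like its mean standardized level over the same 9 mice were Ust (0.979), Prss8 (0.976), Ctps (0.973), Vangl1 (0.972) and Lrp12 (0.971).

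Markers of other liver cells moved with the genotype too. The summed CPM of 8 hepatocyte markers ranged from 76279 to 128770 for cont., from 37034 to 39262 for Atg7-KO and from 113530 to 130020 for Atg7-KO;p62T352A mice. That of 8 cholangiocyte markers was 33.6 to 51.8, 832 to 1028 and 182 to 267, that of 8 macrophage markers was 319 to 470.0, 1293 to 1386 and 227 to 476, and that of 8 stellate cell markers was 247 to 298, 854 to 1004 and 358 to 595. Spp1 made up most of the cholangiocyte sum, at 33.8, 871 and 172 CPM on average, while Krt19 was at 1.43, 7.29 and 2.81 CPM and Epcam at 1.02, 17.4 and 3.47 CPM. Sox9, of the same list, was at 4.87, 25.7 and 30.8 CPM. It was not called in Atg7-KO;p62T352A against Atg7-KO, at 0.26 ± 0.25, and was called higher against cont. Krt7, at 1.32, 2.48 and 1.36 CPM, was not called in any comparison. In the Atg7-KO livers, 8 of 8 hepatocyte markers were called lower, and 6 of 7 cholangiocyte, 7 of 8 macrophage, 6 of 8 stellate cell and 4 of 7 lymphocyte markers tested were called higher. Among 8 endothelial markers 3 were higher and 1 lower. Over all genes tested the shares were 21.6% higher and 22.1% lower. When Atg7-KO;p62T352A was set against Atg7-KO, 7 of 8 hepatocyte markers were higher, and 5 of 7 cholangiocyte, 7 of 8 macrophage, 5 of 8 stellate cell, 5 of 8 endothelial and 2 of 7 lymphocyte markers were lower. Set against cont., 4 of 7 cholangiocyte and 2 of 8 stellate cell markers were higher, and 5 of 8 endothelial and 1 of 8 hepatocyte markers were lower. Over all genes tested, 24.7% were higher and 26.2% lower in Atg7-KO;p62T352A against Atg7-KO. Against cont., 11.6% were called in either direction. The lymphocyte markers lower in the former and the hepatocyte marker lower in the latter were near these shares. No list had a marker at 0 in every mouse of a genotype. The part of cell makeup in the levels of the transferases was not tested, and in bulk liver RNA fewer cells of a type and less RNA per cell cannot be told apart.

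Promoters were searched for 3 short motifs in RefSeq windows from 250 bases before to 50 bases after each start (GRCm38.p6), on both strands. Such windows were at hand for 9 of the 10 genes. Gsta4 was not among them. The core of the antioxidant response element (TGACNNNGC) was in a window of 1 of the 9 genes, against 14.0% of all genes. The AP-1 site (TGACTCA) was in 1 of the 9, against 5.95%, and the core of the xenobiotic response element (GCGTG), which the aryl hydrocarbon receptor binds, in 4 of the 9, against 35.2%. With 9 genes, these counts lay near the shares of all genes, and a link between a match and a level was not tested. Some of the matches are printed as 30 bases on the strand of the gene, with the motif in capitals. The xenobiotic response element cores of Gstm1 and Gstp1 are not printed.
Gsta3, antioxidant response element core, chr1:21240454-21240483: aactcaggcaTGACATTGCatttttcttct
Gsta1, xenobiotic response element core, chr9:78230655-78230684: cttactaaaggaGCGTGcacactcctctgg
Gsta2, xenobiotic response element core, chr9:78347135-78347164: cttactaaagtaGCGTGcacactcctctgg
Gstp1, AP-1 site on the other strand, chr19:4037968-4037997: ctccaacgtgtTGAGTCAgcatccggggcg
Gstp2, AP-1 site on the other strand, chr19:4042292-4042321: ctccaacgtgtTGAGTCAgcatccggggcg

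The only member with the antioxidant response element core in its window was Gsta3, which edgeR's quasi-likelihood test did not call in any of the 3 comparisons and DESeq2 called lower in Atg7-KO;p62T352A against cont. Outside the members, matches were looked up by gene only for Gm3776, Gm10639, Gstp2, Gstm5 and Gstm7. The core was in the window of Gstm5, called higher in Atg7-KO against cont. at 1.16 ± 0.21 (adjusted p = 0.00176, edgeR's quasi-likelihood test). It was also in a window of Gstm7, called lower, as given below. Gstm5, which also held an AP-1 site, was named after its values were seen. Gsta1 and Gsta2, which both rose in Atg7-KO livers, held the xenobiotic response element core in stretches that match at nearly every base. Gstm1 and Gstp1 also held this core, within other bases. Gstp1 and Gstp2 had the same 30 bases around the AP-1 site, while Gstp2 was called in Atg7-KO and Gstp1 was not. A match is a description of letters, and no match says only that these letters are not in this window.

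The other glutathione S-transferases of the table did not move as a block. Of 15 tested, 7 rose and 6 fell in Atg7-KO relative to cont. livers, against 21.6% higher and 22.1% lower of all genes tested. The median log2 fold change of the 15 was 0.60. Gm3776 and Gm10639, given above, rose most. Gstz1, the zeta class enzyme that also takes part in the breakdown of tyrosine, had 849, 749 and 809 CPM in cont. and 301, 273 and 254 CPM in Atg7-KO mice, at -1.54 ± 0.18 (adjusted p = 1.76e-04). Gstt2, of the theta class, was at -1.26 ± 0.36 (adjusted p = 0.0173). In Atg7-KO;p62T352A against Atg7-KO mice 6 of the 15 were higher and 7 lower, with Gstz1 at 1.30 ± 0.17 (adjusted p = 3.42e-04) and Gstt2 at 1.33 ± 0.36 (adjusted p = 0.0119). In that comparison 24.7% of all genes tested were higher and 26.2% lower. Set against cont., 1 of the 15 was called, as higher, against 11.6% of all genes tested in either direction. Gstm7, the mu class gene next to Gstm6, was named after its values were seen. It was at -0.59 ± 0.16 in Atg7-KO against cont. (adjusted p = 0.0143) and 1.01 ± 0.16 higher when Atg7-KO;p62T352A was set against Atg7-KO (adjusted p = 8.02e-04). The estimates of Gstm6 had the same signs, but Gstm6 was not called in the first comparison, and glmTreat did not call it in the second.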

How the data were processed

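Poly(A) RNA of whole livers was sequenced by the authors, and the deposited table holds expected counts per gene from RSEM, with 1 column per mouse and no scaling. The submitters' processing notes name Trim Galore, STAR, RSEM and mm10; versions, annotation and strand setting are not given in the sources used here. The labels name an RNeasy kit for extraction and the paper's methods TRIzol. RSEM divides a read that fits several genes between them, so the counts of near-identical copies depend on that split. The 9 columns were assigned through genotype and mouse number in the labels. The 3 mice labelled p62T352A without Alb-Cre were not analysed here.

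Expected counts were rounded. Genes were kept by edgeR's filterByExpr, libraries scaled by TMM, and the 3 genotypes fitted in 1 quasi-likelihood model (R 4.3.3, edgeR 4.0.16). A gene was called at a Benjamini-Hochberg FDR under 0.05 over all genes tested and a fold change over 1.5. With 3 mice per genotype the spread between mice sets the precision. Replicates differed by far more than counting noise (chi-square per degree of freedom 13.9 to 326). Alternatives were DESeq2 1.42.0, DESeq2's size factors, upper-quartile scaling, an unfiltered table, a minimum of 10 counts per mouse, the mouse number as a block, removal of the most abundant genes (19 of the top 20, since 1 is a member), FDR alone, glmTreat, the mice numbered 1 left out, each mouse left out in turn, summed copies and the mean transcript length. The block on summed copies was added after seeing the data. The edgeR fit was tested on simulated counts with known changes, for Atg7-KO against cont. only. The other steps were not tested in this way. Shared stretches, coding identity and promoters were computed in Python 3.11.15 with Biopython 1.88, and figures drawn with matplotlib 3.10.9.

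Named genes are the 10 members, genes sharing at least 20% of a member's stretches, Atg7, Sqstm1, Nqo1 and Xist as checks, the 2 largest rises and falls called per pathway list, and the 5 genes most alike. Ddx3y, Gstm5, Gstm7 and the cholangiocyte markers given by name were added after their values were seen. The members and lists were chosen with earlier results of these data known.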

Additional observations from a re-analysis of the deposited data

How the results depend on the processing

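In Atg7-KO against cont., 7 members were called under every one of the 19 alternative settings. In Atg7-KO;p62T352A against Atg7-KO, 7 to 8 were called, with Gstm6 lost under glmTreat (log2 fold change 0.90). In Atg7-KO;p62T352A against cont., where none was called, DESeq2 called 3, and each mouse left out in turn gave 0 to 3, with 3 without the cont. mouse numbered 3 and 1 without the cont. mouse numbered 1 or the Atg7-KO;p62T352A mouse numbered 2. The cause was not tested. The 63 other listed genes tested held 44, 43 and 7 calls in the 3 comparisons. Over all genes tested the shares higher and lower were 21.6% and 22.1%, then 24.7% and 26.2%. In the third comparison 11.6% were called in either direction. In the last, DESeq2 gave 13, glmTreat 1, and the mice numbered 1 left out 15. Each mouse left out in turn gave 1 to 18 there, the highest without the cont. mouse numbered 1. The shares of all genes above are those of the main fit. DESeq2 called 15.5% of the genes to which it gave an adjusted p in this comparison. For the other settings such shares are not given here, so their counts cannot be read as a result about the listed genes or the members. Sums of copies kept 2, 2 and 0 calls, with 0 to 1 in the last, where the sum without the cont. mouse numbered 3 was called. Summed with Gstm1 and Gstm3, Gstm6 turned to 2.54 in the first comparison and to -2.13 in the second, as the sum consists mostly of Gstm1. Under upper-quartile scaling the median change over all genes went, on the log2 scale, from -0.03 to 0.08 in the first comparison and from 0.002 to -0.13 in the second, with the member counts unchanged. With the mean transcript length, 16 of the 30 levels per kilobase moved by more than their SD.

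The mouse numbers were not taken to pair the mice, since the correlation of deviations from the genotype mean lay between -0.20 and 0.32 in the 9 pairs with the same number and was over 0.1 in 6 of them, those numbered 1 and 3. Its mean was 0.15 there and -0.07 in the other 18 pairs. Of the 9 mice, 5 correlated best with their own number in both other genotypes. With the number as a replicate block, Gsta1 was called in Atg7-KO;p62T352A against cont. (2.34, adjusted p = 0.0380), which made 1 member and 3 other listed genes called there. The share of all genes called in that fit is not given here.

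Gsta1 rests on 12 to 138 counts per cont. mouse, and short reads limit how far copies can be told apart.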

Other observations

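Most genes that supply glutathione differed in Atg7-KO livers. Of 13 tested, 8 rose and 4 fell in Atg7-KO relative to cont. livers, against 21.6% higher and 22.1% lower of all genes tested. The median log2 fold change of the 13 was 1.34. Slc7a11, which imports cystine, rose most, from 0.630, 0.284 and 0.220 CPM in cont. mice to 340.1, 182 and 218 CPM in Atg7-KO mice, at 9.19 ± 0.60 (adjusted p = 1.40e-05, edgeR's quasi-likelihood test). It was at most 0.392 CPM in Atg7-KO;p62T352A mice. Pgd, which makes the NADPH that keeps glutathione reduced, rose by 3.53 ± 0.21 (adjusted p = 1.28e-05) and lay at -3.23 ± 0.21 in Atg7-KO;p62T352A against Atg7-KO (adjusted p = 1.91e-05). Cbs and Cth, the enzymes that make cysteine from homocysteine, were called lower in Atg7-KO, at -1.66 ± 0.18 (adjusted p = 1.58e-04) and -1.26 ± 0.28 (adjusted p = 0.00601). In Atg7-KO;p62T352A against Atg7-KO mice 7 of the 13 were lower and 2 higher, against 26.2% lower and 24.7% higher of all genes tested. Against cont. mice 1 was higher and 1 lower, where 11.6% of all genes tested were called in either direction. The 8 genes taken as NRF2 references, of which Gclm is also a supply gene, were all called higher in Atg7-KO and all lower in Atg7-KO;p62T352A against it. Against cont. edgeR called none of them. There 2 had an unadjusted p under 0.05, near the 28.2% of all genes tested. The list was chosen with earlier results of these data known, so these counts are a description and not a test. Cbr3 had 1.16 ± 0.32, 331 ± 15.2 and 1.17 ± 0.62 CPM in the 3 genotypes, Srxn1 33.7 ± 10.7, 1252 ± 153 and 47.6 ± 4.21 CPM, and Nqo1 8.61 ± 3.14, 214 ± 37.3 and 14.4 ± 3.52 CPM (mean ± SD, n = 3).

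Of 16 genes for export and further processing of glutathione conjugates, 4 rose and 3 fell in Atg7-KO relative to cont. livers, shares near the 21.6% higher and 22.1% lower of all genes tested. The exporter Abcc4 had 3.90, 3.40 and 5.50 CPM in cont., 229.9, 224 and 232 CPM in Atg7-KO and 2.36, 2.52 and 4.31 CPM in Atg7-KO;p62T352A mice. Ggt1, which removes the glutamyl group from conjugates, had at most 1 count in a cont. mouse and 7.01, 11.7 and 11.8 CPM in Atg7-KO mice. Nat8, which acetylates the cysteine conjugates, was called lower at -3.52 ± 0.82 (adjusted p = 0.00672), and so was Acy1, which removes acetyl groups, at -2.25 ± 0.37 (adjusted p = 0.00113). In Atg7-KO;p62T352A against Atg7-KO mice 4 of the 16 were higher and 5 lower, and against cont. mice 1 was higher and 2 lower. The former lay near the 24.7% higher and 26.2% lower of all genes tested. Against cont. mice 11.6% of all genes tested were called in either direction.

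Of 12 regulators, none rose and 5 fell in Atg7-KO relative to cont. livers (none higher, also at an unadjusted p under 0.05), and 5 were higher in Atg7-KO;p62T352A than in Atg7-KO mice. Against cont. mice 1 was lower. Over all genes tested, 21.6% were higher and 22.1% lower in the first of these comparisons. In the second 24.7% were higher, and against cont. mice 11.6% were called in either direction. Nr1i3, the receptor CAR, had 72.9, 253 and 351 CPM in cont., 26.6, 37.8 and 35.4 CPM in Atg7-KO and 78.3, 159 and 146 CPM in Atg7-KO;p62T352A mice, and it was called lower in Atg7-KO at -2.76 ± 0.51 (adjusted p = 0.00224). Mafg, a partner of NRF2 on DNA, was called lower at -1.61 ± 0.45 (adjusted p = 0.0163), although its cont. mouse numbered 1, at 24.9 CPM, lay among the Atg7-KO mice at 23.6 to 28.3 CPM. None of the 5 sex-linked genes was called in any comparison by edgeR, and none had an unadjusted p under 0.05. Every genotype held mice low and mice high in Xist, from 0.401 to 2015 CPM in cont. mice, and the standard error of Xist in Atg7-KO against cont. was 2.25. These tests could thus hardly call such genes, and the part of this difference between mice in the results was not tested.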
